A study of Mus musculus with 61 samples.

Results

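The Id proteins, the E proteins and Atoh1 were followed at the transcript level in mouse pancreatic ductal organoid cells (strain C57BL/6) that were driven towards endocrine fates by Ngn3, Pdx1 and MafA. The set comprised 8 genes of the 46078 in the count table, chosen by gene family: the Id genes Id1, Id2, Id3 and Id4, the E-protein genes Tcf3, Tcf4 and Tcf12, and the proneural gene Atoh1. Of these, 7 were detected and tested, and Atoh1 had no counts. All organoids carried lentiviral vectors, induced by doxycycline for 8 days through a transactivator under the PGK promoter, in which GFP marks Ngn3, LSS-Orange marks Pdx1 and Tomato marks MafA. By these reporters, pools of 50 cells were sorted that carried Pdx1, MafA or both, each without or with Ngn3. Every one of these combinations came from cultures that received wild-type Ngn3 (WT) and from cultures that received a form whose Cdk target serines were changed to alanine (6SA), which gave 12 conditions with 2 or 3 biological replicates each. The Ngn3-negative cells, 15 samples, were sorted from the same infected cultures as the 17 Ngn3-positive samples, so they are neighbours of reprogramming cells and not uninfected organoids.

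Proneural factors such as Ngn3 belong to the basic helix-loop-helix (bHLH) family and bind DNA at E-boxes as heterodimers with E proteins. Tcf3 encodes E2A (E12 and E47), Tcf4 encodes E2-2 and is a different gene from Tcf7l2, and Tcf12 encodes HEB. Id proteins have the helix-loop-helix but lack the basic region, so an E protein held by an Id protein cannot bind DNA. Id genes are well known targets of bone morphogenetic protein (BMP) signalling through Smads, and the organoid medium contains the BMP antagonist Noggin.

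Id2 and Id4, the Id genes that differed between Ngn3-positive and Ngn3-negative cells in opposite directions, have promoters in the RefSeq table. The sequence upstream of their start sites is shown because the E-box is the kind of site that Ngn3 binds with an E protein. It is the whole window of 250 bases for Id4, and for Id2 the 89 bases of that window that lie outside an untranslated exon of a longer Id2 transcript, in whose intron they fall. Positions are GRCm38.p6, Id2 at chr12:25096254-25096342 on the minus strand and Id4 at chr13:48260866-48261115 on the plus strand. Capitals mark matches on either strand to the E-box CANNTG, the Smad-type GC palindrome GGCGCC and the CCAAT box, none of which overlap here.
Id2: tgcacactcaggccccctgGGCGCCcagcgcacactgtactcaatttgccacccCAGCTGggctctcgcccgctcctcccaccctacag
Id4: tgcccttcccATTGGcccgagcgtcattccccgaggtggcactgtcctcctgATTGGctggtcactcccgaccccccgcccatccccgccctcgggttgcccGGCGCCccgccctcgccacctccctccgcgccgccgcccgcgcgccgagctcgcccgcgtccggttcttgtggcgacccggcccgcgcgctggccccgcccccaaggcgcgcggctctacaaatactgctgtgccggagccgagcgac
The whole Id2 window of 250 bases held 1 E-box (CAGCTG) and 1 GGCGCC, both shown, and 3 CCAAT boxes nearer to the start, and the Id4 window held 1 GGCGCC and 2 CCAAT boxes but no CANNTG. Among 32851 promoter windows of the same length, 66.2% held an E-box, 9.59% held GGCGCC and 33.8% held CCAAT, so the E-box and the CCAAT box are common and a match describes letters only.

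Counts on genes ranged from 2579583 to 19461008 per sample after technical repeats were summed and 3 libraries of 241563 to 625650 counts were left out. Levels are given as CPM, counts scaled to a TMM-adjusted library total of 1000000, and the 3 counts taken as limit of detection amount to between 0.136 and 1.01 CPM, depending on depth. Sorting was checked by Neurog3, which was at 7.87 to 329 CPM in the 17 Ngn3-positive samples and at 0 to 0.787 CPM in the 15 Ngn3-negative ones. The vector carries the mouse coding sequence, so reads from it and from the endogenous gene cannot be told apart. Summed endocrine markers (8 genes) were at 390 to 12920 CPM against 1.29 to 7.77 CPM, and summed duct markers (8 genes, none at 0) at 1434 to 16827 CPM against 11355 to 57350 CPM. Because pools of cells were measured, fewer cells of a type and less RNA per cell cannot be told apart in any level below. Replicates 1 and 2 were both at passage 2 and the labels do not say what separates them, so p-values measure the spread between these samples, part of which may be technical. Replicate 3 was at passage 5, so passage and replicate 3 cannot be told apart, and 4 of the 12 conditions (both Pdx1 conditions, WT MafA, and 6SA Ngn3, Pdx1 and MafA) have no replicate 3 among the samples used.

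Differences were tested with edgeR's quasi-likelihood test in 1 model of the 12 conditions, with p-values adjusted by Benjamini-Hochberg over 24004 genes and a threshold of 0.05. Between Ngn3-positive and Ngn3-negative cells, matched for Pdx1, MafA and culture, 3 of the 7 tested members passed: Id2 was lower, Id4 and Tcf4 were higher. Over all genes tested, 21.5% passed (11.1% higher and 10.5% lower). The remaining 4, Id1, Id3, Tcf3 and Tcf12, did not pass, at log2 fold changes between -0.62 and 0.43.

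Id2, an inhibitor of differentiation that dimerizes with E proteins (chromosome 12 of GRCm38, 25093799 to 25097140), was the member with the lowest adjusted p. Among the Ngn3-negative samples it ranged from 232 to 1142 CPM (median 451, n = 15). Among the Ngn3-positive samples it ranged from 31.2 to 570 CPM (median 118, n = 17). The ranges overlapped between 232 and 570 CPM. The log2 fold change was -1.84 (standard error 0.25, edgeR adjusted p = 3.16e-06), a level 3.57-fold lower with Ngn3. It stayed below 0 and past the threshold in all 15 settings computed, between -2.09 and -1.68.

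The Id2 difference was then read beside each companion factor. With Pdx1 alone, Id2 was at 297 and 451 CPM in WT cultures and at 306 and 540 CPM in 6SA cultures. With Ngn3 and Pdx1 it was at 149, 304 and 298 CPM (WT) and at 83.8, 322 and 570 CPM (6SA), so the samples overlapped. The log2 difference of -0.48, with a standard error of 0.44, did not pass (edgeR adjusted p = 0.776). Both Pdx1 conditions lack passage 5, and both Ngn3 with Pdx1 conditions hold it (298 and 570 CPM). Since Id2 differed by passage among Ngn3-negative samples, passage and Ngn3 are partly confounded in this comparison. With edgeR 0 members passed beside Pdx1, where 1.49% of all genes did, 1 member had an unadjusted p under 0.05, and DESeq2 called 1, Id4.

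With MafA alone, Id2 was at 541 and 402 CPM (WT) and at 404, 645 and 1142 CPM (6SA). With Ngn3 and MafA it was at 122, 114 and 113 CPM (WT) and at 153, 118 and 213 CPM (6SA). Every Ngn3-positive sample here was below every Ngn3-negative one, and the log2 fold change was -2.10 (standard error 0.42, edgeR adjusted p = 0.0025). Beside MafA, 2 of the 7 members passed, Id2 and Id4, against 4.67% of all genes (2.5% higher and 2.17% lower).

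With Pdx1 and MafA, Id2 was at 247, 391 and 745 CPM (WT) and at 232, 644 and 1079 CPM (6SA). With Ngn3, Pdx1 and MafA it was at 107, 94.6 and 66.9 CPM (WT) and at 84.2 and 31.2 CPM (6SA). The groups did not overlap and the level was 7.63-fold lower (log2 fold change -2.93, standard error 0.47, edgeR adjusted p = 7.04e-05). Over the settings computed the log2 fold change lay between -3.74 and -2.28. Passage 5 was uneven here too: both Ngn3-negative conditions hold it (745 and 1079 CPM), and 6SA Ngn3, Pdx1 and MafA does not. Beside both factors, 4 of the 7 members passed (Id1, Id2, Id4 and Tcf4), against 17.8% of all genes (9.42% higher and 8.4% lower). Without replicate 2, 0 members passed beside MafA or beside both factors (Id2 adjusted p = 0.216 and 0.0611, edgeR), and the genes that passed went down to 0.575% and 3.67%. In 4 of 6 matched comparisons every Ngn3-positive sample was below every Ngn3-negative one for Id2, which held downward in at least 4 for 4.19% of all genes.

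A test of whether the 3 Ngn3 effects differ from each other passed for 0 members with edgeR (Id2 adjusted p = 0.29, the 1 member with an unadjusted p under 0.05) and with DESeq2. It passed for 8 genes in all, 0.0333% of those tested. Among Ngn3-positive cells themselves, adding MafA to Ngn3 and Pdx1 went with a lower Id2 (log2 fold change -1.99, standard error 0.45, edgeR adjusted p = 0.0152), the only member of the 7 past the threshold, against 1.88% of all genes (1.35% lower). That call was lost without replicate 2 (log2 fold change -1.66, adjusted p = 0.757) and without replicate 3 (-1.56, adjusted p = 0.066). Adding Pdx1 to Ngn3 and MafA gave -0.93 for Id2 (standard error 0.43, edgeR adjusted p = 0.236), and 0 members passed with edgeR against 2.72% of all genes, while 3 had an unadjusted p under 0.05. DESeq2 called 2, Id1 and Tcf4, as did edgeR with no gene filter or with a term for the replicate number (the replicate block).

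**Figure D1:**
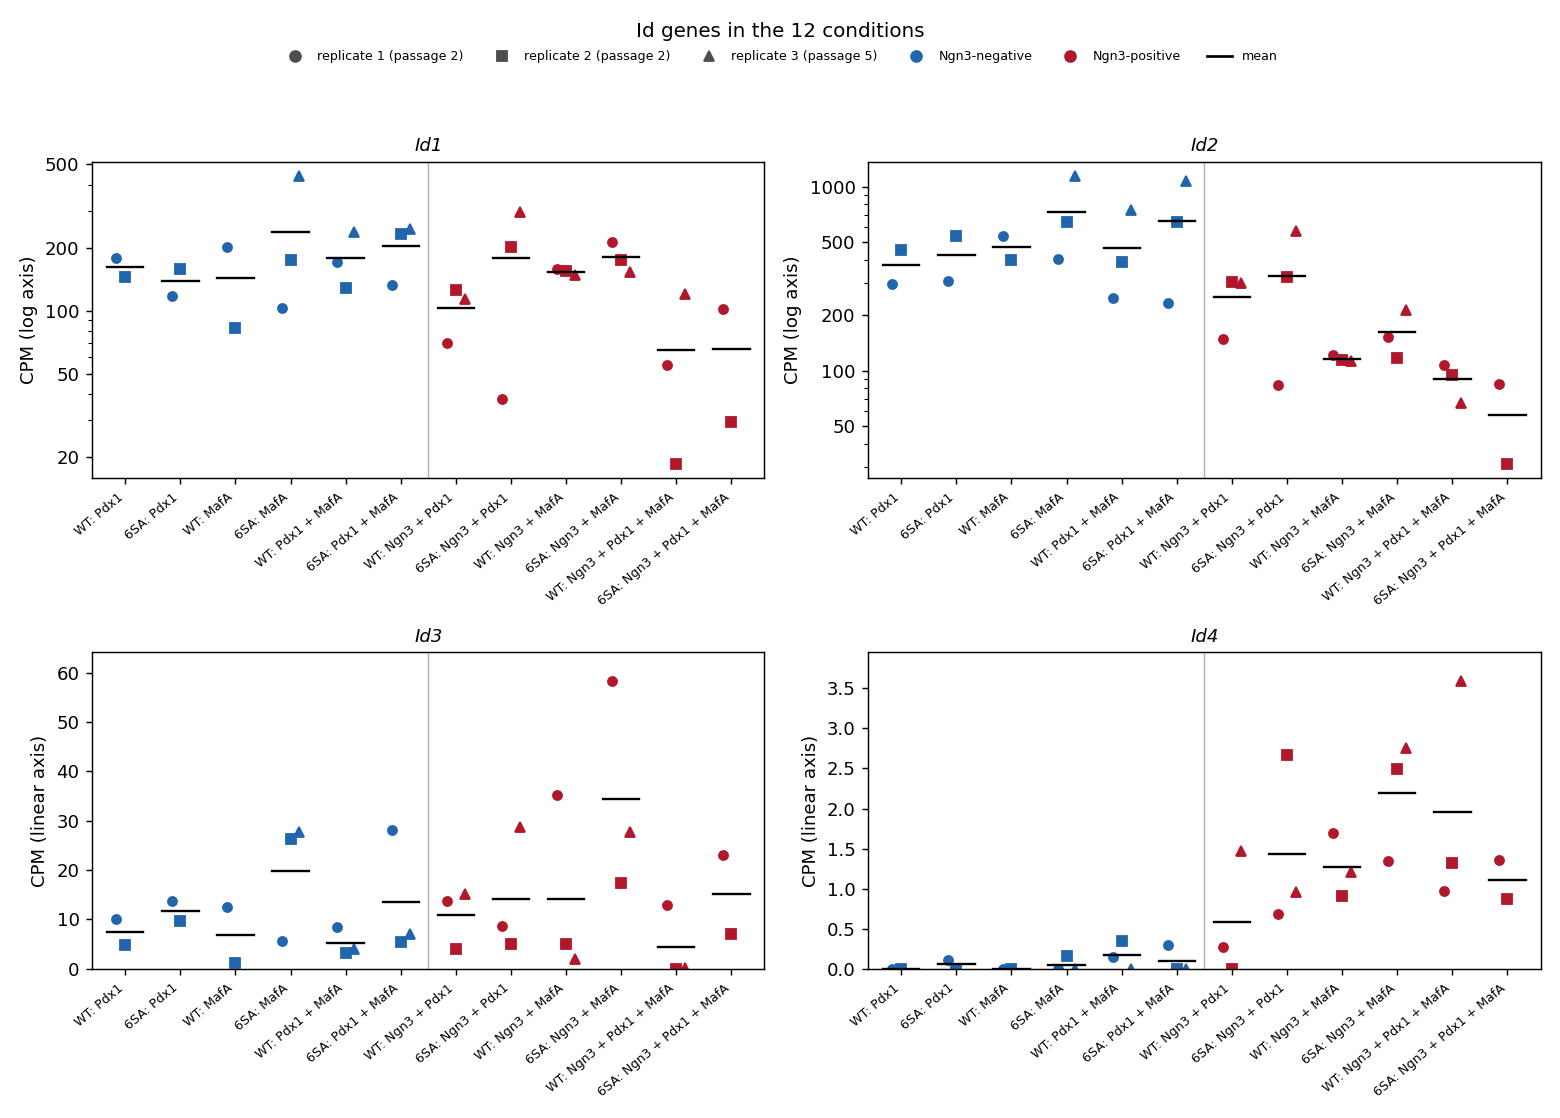
CPM of each Id gene (y axis, log for Id1 and Id2, linear from 0 for Id3 and Id4) in each sample of the 12 conditions (x axis). Symbols are replicates, blue is Ngn3-negative, red is Ngn3-positive and the bar is the condition mean. Id2 is lowest with Ngn3, Pdx1 and MafA (31.2 to 107 CPM), and Id4 is at 0.349 CPM or less in every Ngn3-negative sample.

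The plot of the Id genes by condition also shows the passage. Among Ngn3-negative samples, the 3 at passage 5 had Id2 at 745, 1079 and 1142 CPM and the 12 at passage 2 had at most 645 CPM. Id1 was likewise at 238, 245 and 440 CPM at passage 5 and at 83.0 to 233 CPM at passage 2. Such a separation upward held for 1.19% of all genes. The Id2 difference with Ngn3 was there at both passages, with log2 fold changes of -1.68 at passage 2 (edgeR adjusted p = 4.87e-05) and -1.96 at passage 5 (adjusted p = 0.0369).

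Id1 (chromosome 2, 152736251 to 152737410), a common read-out of BMP signalling, fell beside both factors. It was at 172, 128 and 238 CPM (WT) and 133, 233 and 245 CPM (6SA) with Pdx1 and MafA. With Ngn3 added it was at 55.2, 18.6 and 121 CPM (WT) and 102 and 29.4 CPM (6SA). No sample of the second group reached the lowest of the first, and the level was 2.92-fold lower (log2 fold change -1.55, standard error 0.47, edgeR adjusted p = 0.0233), a call lost without replicate 2 (-1.05, adjusted p = 0.43). In 3 of 6 matched comparisons all Ngn3-positive samples were lower, as in at least 3 for 7.9% of all genes. Beside Pdx1 and beside MafA the log2 fold changes were -0.14 and -0.15 (standard errors 0.48 and 0.45, edgeR adjusted p = 1 for both), and the test between combinations gave an adjusted p of 0.708 (edgeR), so the 3 effects were not shown to differ. Over all combinations Id1 was at -0.62 (standard error 0.27, edgeR adjusted p = 0.108). It lay between -0.87 and -0.46 over the 15 settings computed and passed in some of them, the replicate block among them.

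Id3 (chromosome 4, 136143497 to 136145755), which overlaps with Id1 in function during development, was spread widely within conditions. It ranged from 1.23 to 28.2 CPM in Ngn3-negative samples (median 8.50) and from 0 to 58.3 CPM in Ngn3-positive samples (median 13.0). The log2 fold change with Ngn3 was 0.43 (standard error 0.52, edgeR adjusted p = 0.746) and its sign turned when replicate 1 was left out. Technical repeats of 1 sample spanned 1.35 to 39.1 CPM for Id3, and the median ratio of highest to lowest repeat was 2.25-fold over 17 samples, against a median of 1.60-fold for Id2 and 1.32-fold for Tcf4.

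Id4 (chromosome 13, 48261228 to 48266026), the remaining family member, was at low counts and mostly in Ngn3-positive samples. In Ngn3-negative samples it had 12 counts in all, spread over 5 of 15 samples with at most 5 in any. In Ngn3-positive samples it had 235 counts, with at least 3 in 16 of 17 samples and 0 in replicate 2 of WT Ngn3 with Pdx1. The highest level was 3.59 CPM, in replicate 3 of WT Ngn3, Pdx1 and MafA. Pooled over samples this was 1.36 against 0.0861 CPM, a ratio of 15.8 (95% exact interval 8.88 to 31.0, for counting error only). The edgeR adjusted p was 6.11e-05 over all combinations, 0.0169 beside MafA, 0.0302 beside both factors and 0.0982 beside Pdx1, and the fitted fold changes depend on the prior count because conditions such as WT MafA had no counts. Beside both factors the Id4 call was lost without replicate 1, 2 or 3 (edgeR adjusted p = 0.0768, 0.179 and 0.212), and beside MafA without replicate 1 or 2 (0.384 and 0.228). In 5 of 6 matched comparisons every Ngn3-positive sample was above every Ngn3-negative one, which held upward in at least 5 for 1.91% of all genes. Exons of Id4 overlap an antisense gene, A330033J07Rik, which had at most 3 counts in any sample. Since no source used here gives the strand setting of the counting, Id4 reads lost or gained there cannot be told apart.

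Of the E proteins, the partners that Id proteins hold, 1 of 3 passed. Tcf4 (E2-2, chromosome 18) was higher with Ngn3, at 15.3 to 126 CPM (median 51.1, n = 17) against 14.7 to 54.0 CPM (median 33.6, n = 15). The log2 fold change was 0.91 (standard error 0.25, edgeR adjusted p = 0.00894), 1.88-fold, with overlapping groups. Without replicate 2 it was 0.77 with an edgeR adjusted p of 0.339, and in passage 5 samples alone 0.70 with an adjusted p of 0.421.

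The Tcf4 difference was largest in size beside both factors. With Pdx1 and MafA, Tcf4 was at 37.8, 21.1 and 18.2 CPM (WT) and at 54.0, 23.0 and 14.7 CPM (6SA). With Ngn3 added it was at 126, 106 and 40.3 CPM (WT) and at 84.2 and 113 CPM (6SA). Only the passage 5 sample of the second group fell within the range of the first, and the level was 3.37-fold higher (log2 fold change 1.75, standard error 0.42, edgeR adjusted p = 0.00449), a call lost without replicate 2 (1.43, adjusted p = 0.286). Beside Pdx1 it was 0.60 (standard error 0.45) and beside MafA 0.38 (standard error 0.43), and neither passed (edgeR adjusted p = 0.675 and 0.816). The test between combinations gave an adjusted p of 0.702 (edgeR), so these differences were not shown to differ.

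Tcf3 (E2A, chromosome 10, 80409514 to 80433647) ranged from 33.3 to 156 CPM in Ngn3-positive and from 18.2 to 77.1 CPM in Ngn3-negative samples, with nearly equal medians of 58.0 and 59.0 CPM. Its log2 fold change was 0.22 (standard error 0.18, edgeR adjusted p = 0.481). Tcf12 (HEB, chromosome 9, 71842688 to 72111871) had medians of 113 and 97.3 CPM and differed by 0.21 on the log2 scale, with a standard error of 0.21 (edgeR adjusted p = 0.63). Transcripts of both were counted in all 32 samples, with at least 69 counts of Tcf3 and 175 of Tcf12.

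**Figure D2:**
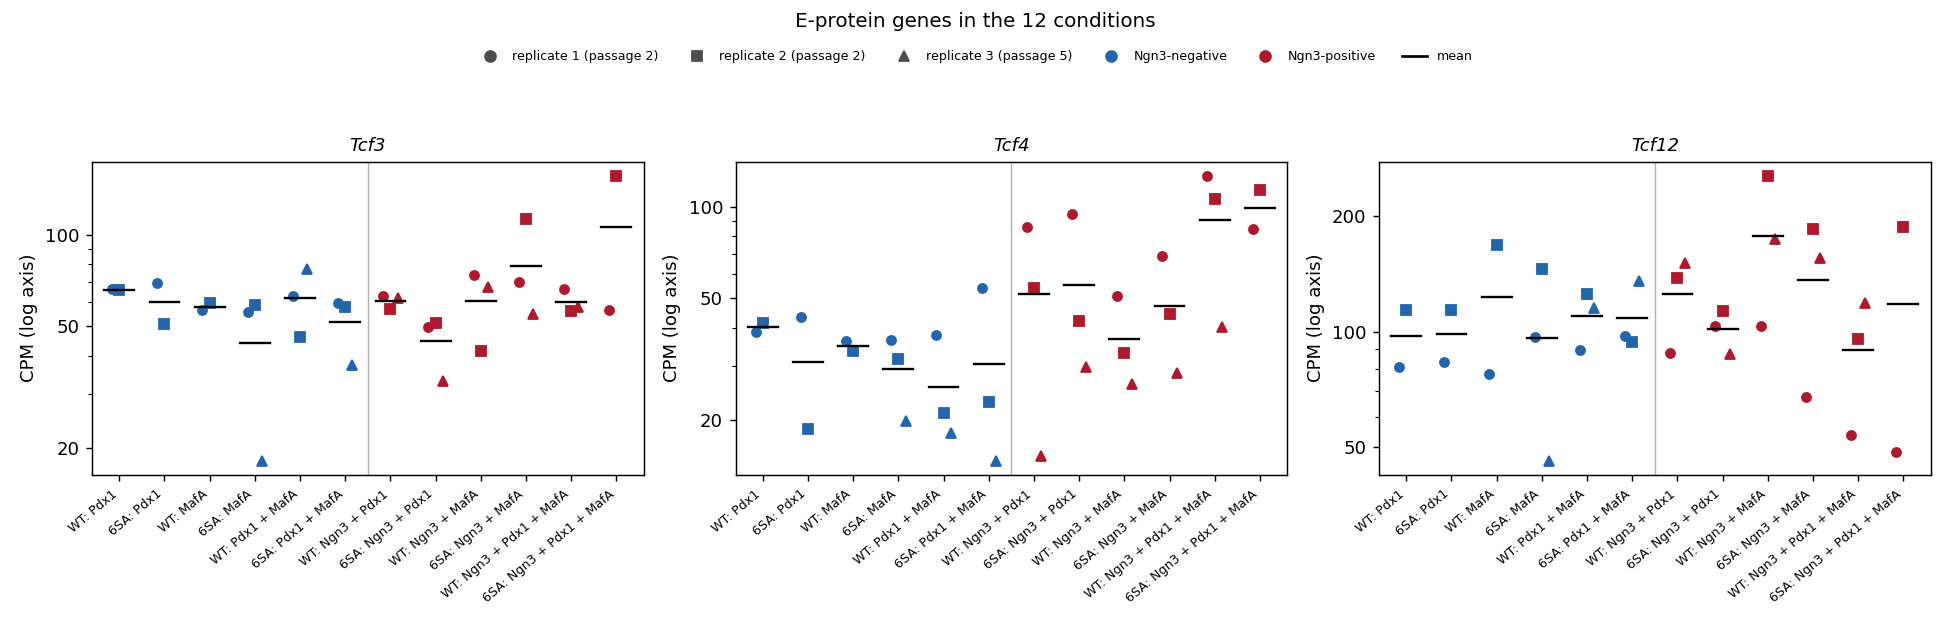
CPM of the 3 E-protein genes (y axes, log) in each sample of the 12 conditions (x axis), with symbols as replicates, blue for Ngn3-negative, red for Ngn3-positive and bars for condition means. Tcf4 is highest with Ngn3, Pdx1 and MafA (40.3 to 126 CPM), while medians of Tcf3 with and without Ngn3 were 58.0 and 59.0 CPM.

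**Figure D3:**
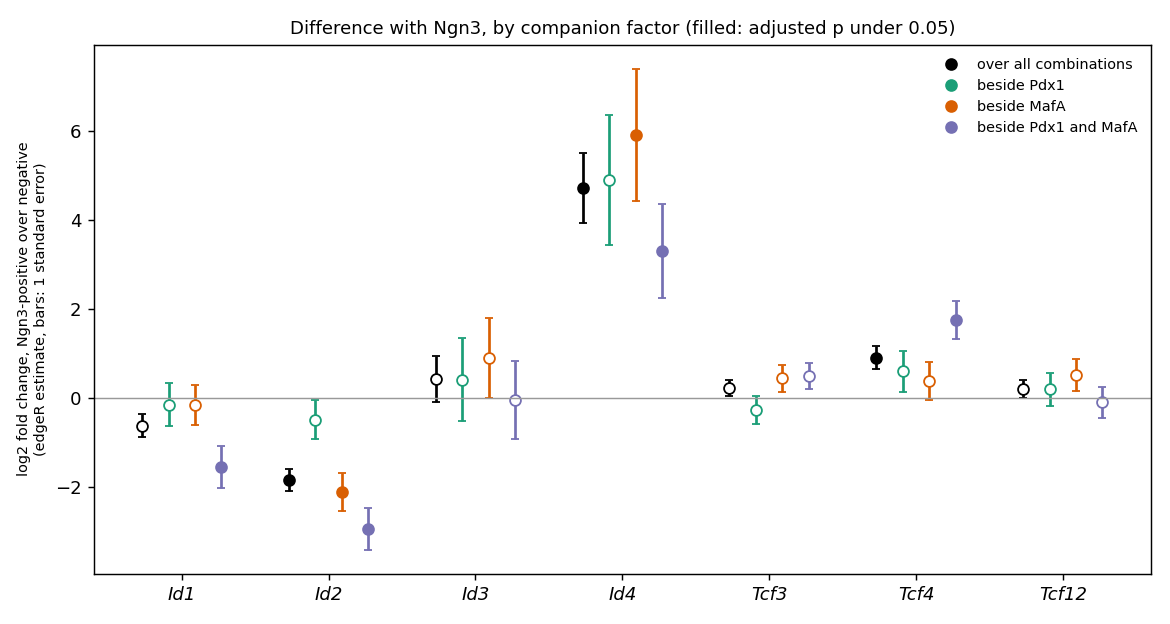
Log2 fold change of Ngn3-positive over Ngn3-negative cells (y axis, edgeR estimate with 1 standard error) for each member (x axis), over all combinations and beside each companion. Filled points passed an adjusted p of 0.05, Id2 runs from -0.48 beside Pdx1 to -2.93 beside both factors, and the values of Id4 depend on the prior count. Passage 5 samples are unevenly spread between the groups compared.

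The plot of fold changes by companion sets these tests side by side. The order of the 12 condition means was followed for each gene from highest to lowest. For Id2, the difference between neighbours in that order was larger than the larger of their standard deviations in 2 of 11 pairs, for Id1 in 1 of 11 and for the other 5 detected members in 0 of 11, so most neighbours cannot be ordered. The test for any difference among the 12 conditions passed for Id2 (edgeR adjusted p = 0.00154) and Id4 (adjusted p = 0.0397), against 7.2% of all genes. Without replicate 2 it passed for 0 members and 0.667% of all genes, and Id4 lost it without replicate 1, without replicate 3, without 6SA MafA replicate 3 and without WT Ngn3 MafA replicate 1.

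Atoh1 (chromosome 6, 64729125 to 64731245), a proneural factor of the gut secretory lineage, had 0 counts in all 61 libraries. Over their 309381708 counts on genes this allows a level of up to 0.0097 CPM.

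Between the 2 forms of Ngn3, 0 members passed with edgeR, and 0 had an unadjusted p under 0.05. Comparing 6SA with WT Ngn3 over the 3 combinations, log2 fold changes ran from -0.10 for Tcf12 to 1.13 for Id3 (standard error 0.70), with 0.07 for Id2 (standard error 0.34) and 0.20 for Tcf4 (standard error 0.34). With edgeR, 0 of 24004 genes passed (0%), 1422 had an unadjusted p under 0.05, and DESeq2 called 26. The same was so between Ngn3-negative cells of both kinds of culture (0 genes, 591 unadjusted, 8 by DESeq2), for the interaction of Ngn3 form with the Ngn3 effect (0, 647 and 5) and for Pdx1 against MafA without Ngn3 (0, 675 and 26). The interaction was -0.36 for Id2 (95% interval -1.33 to 0.60) and 0.32 for Tcf4 (95% interval -0.65 to 1.29). These intervals are unadjusted and hold 0 as well as interactions of either sign, so neither is excluded for these genes.

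Levels of different genes can be set beside each other only per length, here as CPM per kilobase of the longest coding transcript. On that scale Id2 made up 44.8 to 73.8% of the summed Id level in Ngn3-negative samples and 24.4 to 74.6% in Ngn3-positive ones. Id1 made up most of the rest, and Id4 at most 0.671% in any sample. Among E proteins, Tcf4 held a median of 10.7% of the summed level without Ngn3 and 12.6% with it (at most 32.2%). The ratio of summed Id to summed E-protein level was 5.44 to 62.1 without Ngn3 (median 8.19) and 0.491 to 19.8 with it (median 3.47), given as a description with no test. The ratio of 62.1 belongs to replicate 3 of 6SA MafA, a sample that stands apart by the lowest TMM factor of all and by its spike-in share of 0.396%. Without that sample, the Ngn3 calls of Id2, Id4 and Tcf4 over all combinations remained.

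**Figure D4:**
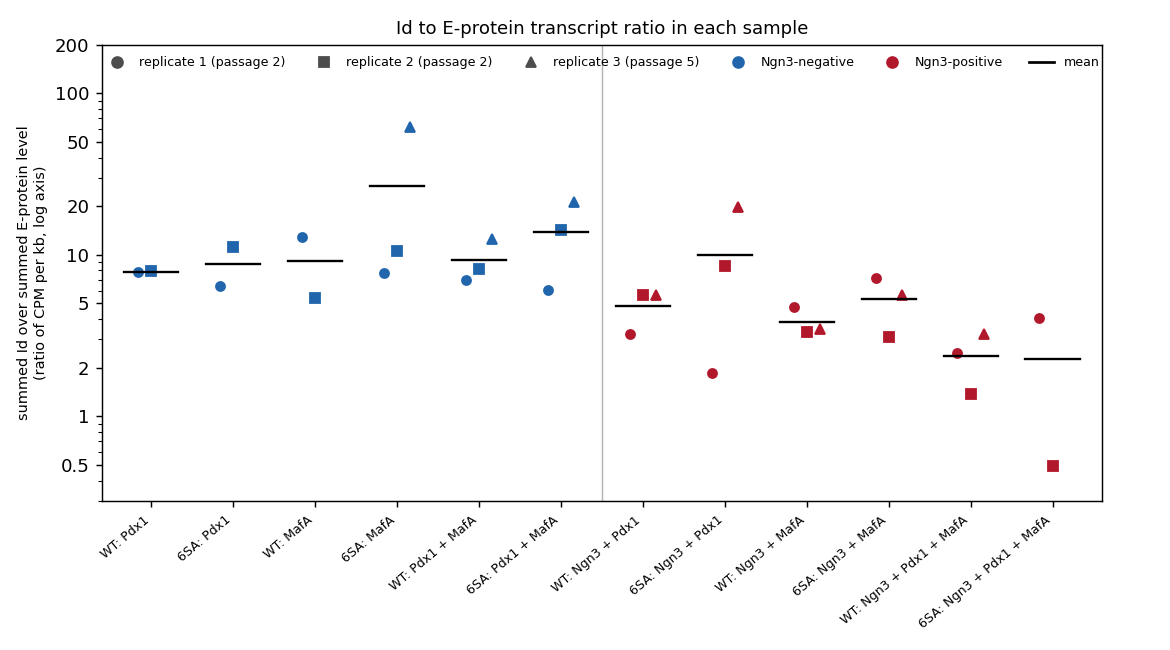
Ratio of the summed Id level to the summed E-protein level, both in CPM per kilobase (y axis, log), in each sample of the 12 conditions (x axis), with symbols as replicates and bars as means. The ratio lies between 0.491 and 4.07 in the 5 samples with Ngn3, Pdx1 and MafA and between 5.44 and 62.1 in Ngn3-negative samples.

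Within the 17 Ngn3-positive samples, the level of Neurog3 itself was set against the 7 detected members on log2(CPM + 1). Tcf4 was higher where Neurog3 was higher (Pearson r = 0.80, permutation p = 0.00026, adjusted p = 0.0018 over 7 relations, Spearman rho = 0.78, permutation p = 0.00036). Without the 2 samples farthest from the median Neurog3 level r was 0.69. The 5 passage 5 samples had Neurog3 at 7.87 to 38.8 CPM, and within the 12 passage 2 samples r was 0.58 (permutation p = 0.0545, adjusted p = 0.127), so the relation did not pass within that passage. No correlation was computed within the 5 passage 5 samples.

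Id2 ran the other way, with a larger coefficient within passage 2 than over both passages. Over the 17 samples r was -0.57 (permutation p = 0.0162, adjusted p = 0.0501, rho = -0.53, permutation p = 0.0284), and -0.38 without the 2 farthest samples. Within passage 2 it was -0.83 (permutation p = 0.00018, adjusted p = 0.00126, rho = -0.87, permutation p = 0.00056, n = 12). Id1 was at r = -0.54 (permutation p = 0.0215, adjusted p = 0.0501, rho = -0.43, permutation p = 0.0882) and -0.61 within passage 2 (adjusted p = 0.113, permutation test). For the other 4 members r lay between -0.39 and 0.23, with permutation p from 0.121 to 0.807. The lowest was Id4, whose rank correlation was rho = -0.56 (permutation p = 0.0189, adjusted p = 0.0661 over 7 relations). The samples come from 6 conditions, so these are relations over conditions and replicates together. After each condition's mean was taken out, r was 0.86 for Tcf4, -0.42 for Id2, -0.62 for Id1 and -0.83 for Id4, given as a description.

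**Figure D5:**
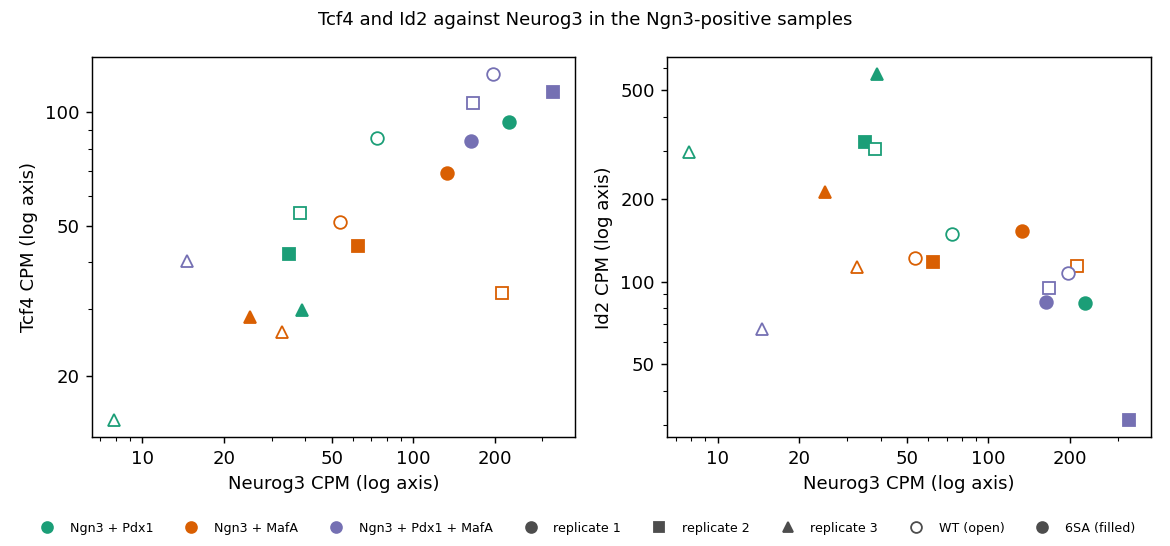
Tcf4 (left) and Id2 (right) against Neurog3, all in CPM on log axes, in the 17 Ngn3-positive samples, with colours for the companion factors, symbols for replicates and filled points for 6SA. Tcf4 is higher at higher Neurog3 (r = 0.80 on log2(CPM + 1)), and the passage 5 samples (triangles) sit at the lower end of Neurog3.

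The plot of both genes against Neurog3 makes the passage visible: the triangles of replicate 3 lie at the left in both panels. The genes whose pattern over the 32 samples was most like each member, among 10259 genes at a mean log2(CPM + 1) of at least 3, are given as a description. For Id2 they were Mgst1 (r = 0.94) and Gsta4 (r = 0.92), both glutathione transferases, and Fam213a (r = 0.91). For Tcf4 they were Agap3 (r = 0.92), Castor2 (r = 0.92) and Hectd4 (r = 0.91). For Id4 they were Hes6 (r = 0.82), itself a bHLH gene, Ghrl (r = 0.82), the ghrelin gene, and Rnase4 (r = 0.80). For Id1 they were Fbxo6 (r = 0.86), Ier3 (r = 0.86) and Tspan8 (r = 0.86), and for Tcf12 Dmxl1 (r = 0.92), Fam91a1 (r = 0.88) and Golph3 (r = 0.86). Id3 and Tcf3 had no gene above r = 0.80, with Porcn (r = 0.73) and Tnrc18 (r = 0.80) first.

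The other genes of the bHLH family were read from lists. Of 24 proneural bHLH genes, 13 were tested and 8 rose with Ngn3, where 11.1% of all genes rose and 10.5% fell. Neurog3, one of them, is itself the induced factor. Of the 13, 5 had at most 1 count over all Ngn3-negative samples. Ascl4 and Neurod2 were counted in only 1 and 2 of those 15 samples. All of these were tested through their counts with Ngn3, so the count of 8 gives no support for a direction. For the same reason the adjusted p of Nhlh2 and Neurod2 below are description only. Neurod1, a direct Ngn3 target in endocrine differentiation, was at 20.0 to 240 CPM with Ngn3 and had at most 2 counts in any sample without it, at least 306-fold higher when set against 3 counts per sample (edgeR adjusted p = 4.77e-13). Nhlh2 was at 0 to 64.2 CPM (median 1.95, counted in 12 of 17 samples) against no counts (adjusted p = 0.00015, edgeR). Atoh8, a relative of Atoh1, was at 0 to 13.0 CPM against at most 0.504 CPM (log2 fold change 6.44, edgeR adjusted p = 2.28e-05), and Neurod2 was at 0 to 61.4 CPM against at most 0.235 CPM (7.69, adjusted p = 8.26e-06). Of 22 other E-protein partners, 9 were tested and 1, Mesp2, rose (log2 fold change 3.83, edgeR adjusted p = 0.0116, at most 5.61 CPM), a share near the 11.1% of all genes that rose.

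Since Id genes respond to BMP signals, the genes of that pathway were read in order. Of 4 tested ligands, Bmp2 (log2 fold change 2.06, edgeR adjusted p = 0.000609) and Bmp6 (2.27, adjusted p = 0.000261) rose and Bmp4 fell (-1.61, adjusted p = 0.000447), against 11.1% of all genes higher and 10.5% lower, which are the shares for the counts that follow too. The values beside each companion follow, without a test of whether they differ from each other. Bmp2 was at 3.11 beside Pdx1 (edgeR adjusted p = 0.0545), 2.83 beside MafA (adjusted p = 0.0237) and 0.24 beside both (adjusted p = 0.909). Bmp6 was at 2.19 (edgeR adjusted p = 0.209), 4.39 (adjusted p = 0.00147) and 0.24 (adjusted p = 0.908) in the same order, and Bmp4 at -0.53 (adjusted p = 0.845), -0.85 (adjusted p = 0.496) and -3.45 (adjusted p = 0.000295). So with Ngn3, Pdx1 and MafA together Bmp4 passed, and Bmp2 and Bmp6 did not, which by itself does not show that the effects differ. Of 8 receptors, Acvr1 (0.45, edgeR adjusted p = 0.0324) and Acvr2b (1.51 to 14.3 CPM against 0.857 to 4.91 CPM, adjusted p = 0.0216) rose and Acvrl1 fell (-3.18, adjusted p = 0.00348), the last from at most 3.70 CPM. Of the 4 Smads that carry the signal, 0 passed with edgeR. Of 8 tested inhibitors, 3 rose and 1 fell. Chrd, which binds BMP outside the cell, had at most 2 counts in any Ngn3-negative sample and was at least 13.9-fold higher (edgeR adjusted p = 1.35e-06). It was counted in only 1 of the 15 Ngn3-negative samples and so was tested through its counts with Ngn3. Its place among the 3 therefore gives no support for a direction. Bambi, a pseudoreceptor that dampens the signal, was at 18.9 to 284 CPM against 0.12 to 19.8 CPM (log2 fold change 4.25, adjusted p = 8.19e-07, edgeR). Nog rose at low counts (2.65, edgeR adjusted p = 0.0331, at most 3.03 CPM), Fst fell (-2.67, adjusted p = 1.92e-05), and the inhibitory Smads Smad6 (-1.29, adjusted p = 0.088) and Smad7 (-0.55, adjusted p = 0.0799) did not pass. Beside both factors Smad7 passed (-1.23, edgeR adjusted p = 0.0279) and Smad6 did not (-1.98, adjusted p = 0.15), and beside Pdx1 or MafA alone neither passed.

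Markers of other cells were read beside these results. Summed mesenchyme markers (8 genes, Lum at 0) had medians of 1.28 CPM with and 2.25 CPM without Ngn3, and a single sample, replicate 1 of WT Ngn3 with MafA, reached 298 CPM against 19.6 CPM in the next. Its Tcf4 was 51.1 CPM, the highest of its 3 replicates (33.3 and 26.2 CPM in the others) and the median of all 17 Ngn3-positive samples, and the calls of Id2, Id4 and Tcf4 over all combinations remained without it. Summed endothelial markers (8 genes, Cldn5 at 0) were at 1.45 to 34.9 CPM with and 2.05 to 24.5 CPM without Ngn3, and acinar markers (8 genes, Ptf1a and Pnlip at 0) at 0.151 to 34.3 and 0.504 to 17.1 CPM. Summed immune markers (8 genes) were at 39.6 to 423 CPM with and 413 to 992 CPM without Ngn3, of which Cd14 made up 6.58 to 411 and 396 to 973 CPM, while Ptprc, the pan-leukocyte marker, was at 0 in every Ngn3-negative sample. Duct markers fell in 5 of 8 genes alongside Id2, endocrine markers rose in 8 of 8 (against 10.5% of all genes lower and 11.1% higher) and Cd14 fell, and their part in the results above was not tested.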

How the data were processed

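RNA of sorted 50-cell pools was sequenced as single-end 50-base reads. The authors aligned them with GSNAP to mm10 and assigned them to Ensembl genes with HTSeq (0.5.3p3), per the labels and the methods, and deposited raw counts per gene and library. The strand setting of the counting is not given in the sources used here. HTSeq summary rows, which name no gene, came to 33.9 to 67.3% of the table's total per library and were left out. Of 61 libraries, 58 passed the study's limits (under 25% spike-ins, over 1000000 counts, over 10000 genes), and technical repeats were summed to 32 samples. The study describes leaving out more samples than these limits remove here. Symbols matched 45143 of 46078 genes, and promoters came from RefSeq (GRCm38.p6).

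Genes were tested (24004) if 5 or more libraries detected them and their log2(CPM + 1) varied by more than 0.001 (variance), with edgeR 4.0.16 in R 4.3.3 (TMM, trended dispersion, quasi-likelihood test). The study used DESeq2, which was run as an alternative (version 1.42.0). The other alternatives were RLE size factors, no filter, filterByExpr, the edgeR setting legacy=FALSE, the replicate block, all libraries, the first repeat only, each replicate left out, passage 5 alone, and, chosen after seeing the data, 2 single samples left out. The scripts were tested on simulated data, where DESeq2 called more unchanged genes than edgeR, so its counts of calls may be too high.

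Named genes were the 8 members, Neurog3, up to 5 genes past the threshold per list with the lowest adjusted p, and the 3 genes most like each member by Pearson's r. The members and lists were chosen with earlier results of these data known. Intervals and the limit of 3 counts cover counting error only, since PCR copies are not independent molecules. Permutation tests of correlations were two-sided with 100000 resamples (SciPy 1.17.1).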

Additional observations from a re-analysis of the deposited data

Results flagged for a closer look

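The 3 libraries left out for low totals, all with Ngn3, Pdx1 and MafA, were read beside the samples used, as plain CPM of their gene counts. Tcf4 was at 126 CPM (79 counts) in repeat 1 of WT replicate 2, at 120 CPM (29 counts) in repeat 2 of 6SA replicate 2 and at 75.8 CPM (31 counts) in 6SA replicate 3, above the highest Ngn3-negative library used (62.4 CPM). Id4 was at 7.99 CPM in repeat 1 of WT replicate 2, from 5 counts, above the highest such library (0.892 CPM). It had 0 counts in the other 2, where 3 counts amount to 12.4 and 7.34 CPM.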

How the results depend on the processing

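Direction and calls were compared for the Ngn3 effects (over all combinations and beside each companion), MafA added and Pdx1 added. Of the members' log2 fold changes in these under the alternatives, 501 kept direction and side of the threshold, 17 crossed to significance, 17 lost it and 18 changed sign. Id2 over all combinations kept both everywhere. Tcf4 lost its call without replicate 2 (0.77, edgeR adjusted p = 0.339) and with passage 5 alone (0.70, adjusted p = 0.421), where Id4 also lost it (6.73, adjusted p = 0.0733) and 1 member passed. Leaving out a replicate or a sample gave 2 to 3 members over all combinations, 0 beside Pdx1, 0 to 2 beside MafA, 0 to 4 beside both, 0 to 1 between combinations, 0 to 1 for 6SA against WT Ngn3 (Id3, without replicate 1), 0 to 3 for MafA added, 0 to 3 for Pdx1 added and 0 to 4 for any difference. Without replicate 2, genes called over all combinations fell from 5168 to 2085. Members called became 1 beside Pdx1 with DESeq2 (Id4), 1 beside MafA with the first repeat only (Id2), 1 between combinations (Id2), 2 for MafA added (Id1, Id2) and 5 for any difference with no filter, and 2 for Pdx1 added (Id1, Tcf4) with DESeq2, with no filter and with the replicate block. The causes were not tested.

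The changes of sign were in values that did not pass. Leaving out a replicate or sample spanned, over all combinations, -0.33 to 0.57 for Id3, beside Pdx1 -0.42 to 0.19 for Id1 and -0.24 to 0.90 for Id3, beside MafA -0.49 to 0.35 for Id1 (0.26 without 6SA MafA replicate 3, 0.0112 without replicate 1) and -0.10 to 1.43 for Id3, and beside both -2.53 to 0.23 for Id3 and -0.75 to 0.33 for Tcf12. It spanned -3.99 to 0.29 for Id3 and -0.72 to 0.25 for Tcf12 with MafA added, and -0.53 to 0.0276 for Id4 and -0.16 to 0.50 for Tcf3 with Pdx1 added. Beside both factors, Id3 was 0.0840 with DESeq2 and 0.0871 with RLE, Tcf12 was 0.0372 with either, and with MafA added Id4 was -0.39 with the first repeat only. RLE moved the median of all genes beside both factors from 0.05 to 0.17. DESeq2 called 273 genes between combinations against 8, 911 beside Pdx1 against 358, 1928 beside MafA against 1121, 1344 for MafA added against 451, 1935 for Pdx1 added against 654 and 3328 for any difference against 1729.

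Replicate numbers were not used as pairs, which would have needed all 14 matched pairs to correlate above 0.1: 12 did and the lowest was -0.42. As a hint from the data that numbers share something, the mean r was 0.379 for the same number and -0.194 for other numbers, and 28 of 32 samples were closest to their own number. With the replicate block, 6620 genes passed over all combinations, Id1 among them (-0.69, edgeR adjusted p = 0.0278). Depth limits Id4, whose Ngn3-negative samples had at most 5 counts.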
